A study of Mus musculus with 6 samples.

Results

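The 10 genes described here encode subunits of the ionotropic glutamate receptors that carry fast excitation in the brain: the 4 AMPA receptor subunits Gria1 to Gria4 and 6 NMDA receptor subunits, Grin1, Grin2a to Grin2d and Grin3a. They were chosen by name from the 33457 features that all 6 matrices list. No measured value entered that rule, though earlier results of these data were known. Each member was read in 16 classes of nuclei in every library. Grin3b, the remaining NMDA receptor subunit gene, was looked at beside them.

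RNA was counted in single nuclei of 9-month-old B6 mice, in 6 groups of 1 library. TAFE4_tam and TAFE3_tam came from P301S tau mice with floxed APOE4 or APOE3 and the Cre that the labels spell Aldh1la1CreERT, given tamoxifen, and TAFE4_oil and TAFE3_oil from mice of those genotypes given oil. FE4 and FE3 mice carried floxed APOE4 or APOE3 alone and were untreated. Floxed APOE was thus shared by all groups, TAFE oil and FE mice differed in tau, Cre and oil together, and tamoxifen came together with the deletion in Cre-bearing cells, so these cannot be told apart. The labels and files used here give neither the promoter of the tau transgene nor the number of animals behind a library. Titles name the hippocampus, the protocol the left hemisphere, and the tissue label nuclei of brain. As a check of the labels, APOE, the targeted gene, stood in astrocytes at 5246 CPM in TAFE4_tam and 5188 CPM in TAFE3_tam, against 19249 CPM in TAFE4_oil and 16300 CPM in TAFE3_oil, with 12435 CPM in FE4 and 12024 CPM in FE3. CPM are UMIs (unique molecular identifiers, 1 per captured transcript) per 1000000 UMIs of the class in that library.

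AMPA and NMDA receptors are each built from 4 subunits that line a cation channel. An AMPA receptor that holds an edited GluA2 subunit, from Gria2, passes little calcium, and receptors without it pass calcium and gate fast, as is known of many interneurons. An NMDA receptor needs the GluN1 subunit of Grin1, which binds glycine or D-serine, and takes most of its gating, magnesium block and synaptic placing from the Grin2 subunits, which bind glutamate. GluN3A, from Grin3a, lowers calcium flow through NMDA receptors and is best known from young synapses.

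By GENCODE vM21 on mm10, Gria1 lies on chromosome 11 (57011387 to 57330244, plus strand), Gria2 on chromosome 3 (80681450 to 80802835, minus), Gria3 on chromosome X (41400854 to 41678601, plus) and Gria4 on chromosome 9 (4417896 to 4796234, minus). Grin1 lies on chromosome 2 (25291181 to 25319187, minus), Grin2a on chromosome 16 (9567898 to 9995560, minus), Grin2b on chromosome 6 (135713233 to 136173511, minus) and Grin2c on chromosome 11 (115249169 to 115267243, minus). Grin2d lies on chromosome 7 (45831883 to 45878378, minus) and Grin3a on chromosome 4 (49661611 to 49845744, minus). Genes on the other strand overlap Grin1, Grin2b and Grin2d, and Ppp3r2 lies within Grin3a on its own strand. Neither labels nor headers say whether strand or introns entered the counting, so values where genes overlap are uncertain.

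Promoters of 5 of the 10 members are in the RefSeq promoter table (GRCm38.p6). 3 are shown because they head the contrasts below: Gria2, the highest member per length of exons; Grin1, the flattest across neuron classes; and Grin2c, the astrocyte member. Each runs 5′ to 3′ over the 250 bases before the start, on the minus strand, at chr3:80802836-80803085, chr2:25319188-25319437 and chr11:115267244-115267493. Capitals mark the GC box GGGCGG, the E-box CACGTG and GGACAG, part of the RE1 element that the neuronal repressor REST binds, each searched on both strands.
Gria2: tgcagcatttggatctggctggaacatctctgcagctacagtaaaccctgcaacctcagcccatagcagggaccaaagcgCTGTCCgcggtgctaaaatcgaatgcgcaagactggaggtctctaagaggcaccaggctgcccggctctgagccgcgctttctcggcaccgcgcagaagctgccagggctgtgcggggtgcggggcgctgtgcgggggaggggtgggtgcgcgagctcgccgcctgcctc
Grin1: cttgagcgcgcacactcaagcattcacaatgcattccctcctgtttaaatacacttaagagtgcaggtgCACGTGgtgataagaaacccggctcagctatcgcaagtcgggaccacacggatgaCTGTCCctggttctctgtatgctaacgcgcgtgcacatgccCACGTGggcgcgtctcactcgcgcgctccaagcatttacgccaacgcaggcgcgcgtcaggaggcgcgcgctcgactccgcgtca
Grin2c: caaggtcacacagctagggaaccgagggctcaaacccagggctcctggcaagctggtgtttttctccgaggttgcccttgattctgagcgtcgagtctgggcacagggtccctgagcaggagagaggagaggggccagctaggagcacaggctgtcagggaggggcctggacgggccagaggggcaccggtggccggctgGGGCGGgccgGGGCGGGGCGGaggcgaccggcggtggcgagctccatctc
The Grin2c window held 3 GC boxes, of which the last pair shares a base, the Grin1 window 2 E-boxes and 1 GGACAG, and the Gria2 window 1 GGACAG. Among all 32851 promoters of the table, 32.7% held GGGCGG, 6.02% CACGTG and 18.7% GGACAG in the same window. These matches are descriptions of letters and no evidence of binding.

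The 6 libraries held 14762 to 18171 barcodes and 39050503 to 49083723 UMIs. After filters 9881 to 14349 nuclei per library were used, with medians of 2157 to 2578 UMIs. Of the barcodes 11.3% in TAFE4_tam, 26.7% in TAFE3_tam, 20.8% in TAFE4_oil, 21.9% in TAFE3_oil, 8.99% in FE4 and 30.2% in FE3 were over the mitochondrial limit and left out. Pairs of libraries shared 0.220% to 0.423% of the barcodes of the smaller one. The classes were 8 of excitatory neurons, 4 of interneurons and 4 of glia, rebuilt by clustering without any glutamate receptor gene. The dentate granule-like, CA1-like and CA2/CA3-like classes and the interneuron and glial classes are named from markers, and 5 excitatory classes are called by their leading genes. Orders of classes below are among these 16, and 9 clusters and 5 interneuron subclusters that stayed unnamed are outside them. The Rorb/Cux2 class held 1189 nuclei in TAFE4_tam, 971 in TAFE3_tam, 3039 in TAFE4_oil, 1926 in TAFE3_oil, 87 in FE4 and 153 in FE3. Cux2 and Rorb are markers of upper cortical layers. A level in a class is a sum over nuclei of 1 library, so intervals below (exact, 95%) cover counting error only, and with 1 library per group there is no test between animals.

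Gria2 was the highest of the 10 members per length of exons in the CA1-like, Pvalb-like, astrocyte and oligodendrocyte precursor classes, where lengths were applied. Its mean level over libraries ran from 3140 to 5399 CPM in the 8 excitatory classes and from 2089 to 3401 CPM in the 4 interneuron classes. Oligodendrocyte precursors at 3125 CPM and astrocytes at 2752 CPM lay within the interneuron span and below every excitatory mean. Per kilobase of exons, as a mean over the 6 libraries, CA1-like neurons held 332 CPM of Gria2, against 128 CPM of Grin2a, 122 CPM of Gria1, 110 CPM of Grin2b, 84.8 CPM of Gria3 and 44.6 CPM of Grin1. Gria4 came to 5.91, Grin3a to 1.90 and both Grin2c and Grin2d to 0.440 CPM per kilobase in the same neurons. Since nuclear RNA holds introns, an exon length is an approximate measure, and the order of levels between genes rests on it.

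Among the AMPA receptor subunits, Gria2 in CA1-like neurons stood at 5106 CPM in TAFE4_tam, 5543 CPM in TAFE3_tam, 4574 CPM in TAFE4_oil, 4783 CPM in TAFE3_oil, 6286 CPM in FE4 and 4646 CPM in FE3. Its mean over the libraries was highest in Fn1/Nts neurons at 5399 CPM, whose range overlapped that of CA1-like neurons. In Lamp5-like interneurons it was lowest among neuron classes, with 2015 CPM in TAFE4_tam, 1939 CPM in TAFE3_tam, 2266 CPM in TAFE4_oil, 2191 CPM in TAFE3_oil, 2350 CPM in FE4 and 1775 CPM in FE3. The 6 Lamp5-like values lay below every value of any excitatory class.

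Gria1, whose GluA1 subunit is known for its part in synaptic strengthening, was highest among the 16 classes in CA1-like neurons: 867 CPM in TAFE4_tam, 752 CPM in TAFE3_tam, 624 CPM in TAFE4_oil, 702 CPM in TAFE3_oil, 689 CPM in FE4 and 794 CPM in FE3. The Sst-like (567 to 721 CPM), dentate granule-like (485 to 637 CPM) and Lamp5-like (386 to 653 CPM) classes followed, with ranges that overlapped. Gria1 was lowest among neurons in the Tshz2 class, at 140 to 231 CPM, a 4.39-fold difference of the means. Outside the 16 classes, an unnamed interneuron subcluster of 554 nuclei with Cbln4 among its leading genes held 1192 CPM of Gria1 summed over the libraries, more than CA1-like neurons in any library. Another, of 350 nuclei and led by Aox3 and C1ql1, held 798 CPM. Of 7 Pvalb interneuron markers, Pvalb and Pthlh were over 2-fold higher in it than in the other interneurons.

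Gria3 had its highest mean of the 16 classes in Pvalb-like interneurons, the fast-spiking cells: 1008 CPM in TAFE4_tam, 869 CPM in TAFE3_tam, 875 CPM in TAFE4_oil, 888 CPM in TAFE3_oil, 1248 CPM in FE4 and 908 CPM in FE3. Its ranges overlapped in the Pvalb-like, Fn1/Nts, Sst-like and Foxp2/Tle4 classes. In Vip-like interneurons Gria3 reached only 163 to 236 CPM, below every value in the Lamp5-like class, the next lowest (260 to 415 CPM). The unnamed subclusters marked by Cbln4 and by Aox3 held 1076 and 891 CPM, inside the range of Pvalb-like interneurons. Among the 16 classes Gria3 thus separated interneuron classes from one another more than it separated interneurons from excitatory neurons.

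Gria4, the subunit of fast AMPA receptors, was also highest of the 16 classes in Pvalb-like interneurons, with 403 CPM in TAFE4_tam, 404 CPM in TAFE3_tam, 359 CPM in TAFE4_oil, 315 CPM in TAFE3_oil, 391 CPM in FE4 and 366 CPM in FE3. Every one of these lay above the highest value of any other of the 16 classes, while the unnamed subclusters marked by Aox3 and by Cbln4 held 448 and 405 CPM of Gria4, above all of them. The Aox3 subcluster carries the Pvalb marker too, as given above. The 3 hippocampal excitatory classes were lowest among neurons. Gria4 ran from 27 to 41.7 CPM in dentate granule-like, 30.7 to 40.0 CPM in CA1-like and 30.6 to 46.5 CPM in CA2/CA3-like neurons. The Rorb/Cux2 class held 179 to 225 CPM. Astrocytes, at 22.1 to 30.4 CPM, had the lowest mean of the 16 classes. Oligodendrocyte precursors held 136 to 157 CPM of Gria4, more than any of those hippocampal classes.

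The make-up of the AMPA pool, taken as the share of all Gria1 to Gria4 UMIs, split the interneurons. Gria2 made up 57.4% in TAFE4_tam, 58.4% in TAFE3_tam, 61.7% in TAFE4_oil, 63.0% in TAFE3_oil, 59.0% in FE4 and 55.5% in FE3 of the AMPA subunit UMIs in Pvalb-like interneurons. In CA1-like neurons the Gria2 share was 73.9% in TAFE4_tam, 77.3% in TAFE3_tam, 76.2% in TAFE4_oil, 75.3% in TAFE3_oil, 78.5% in FE4 and 75.4% in FE3. Pvalb-like (mean 59.2%), Sst-like (61.1%) and Lamp5-like interneurons (65.3%) lay below all 8 excitatory classes in every library, while Vip-like interneurons (84.7%) lay above all of them. In the unnamed interneuron subclusters marked by Cbln4 and by Aox3 the Gria2 share was 50.8% and 56.6%, lower than the Pvalb-like mean. The other unnamed interneuron subclusters stood higher, at 79.7% (842 nuclei), 70.4% (546 nuclei) and 71.6% (42 nuclei).

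Which subunit took the remainder differed by class. In Pvalb-like interneurons Gria3 held 21.3% and Gria4 8.29% of AMPA subunit UMIs as means over libraries, and in Lamp5-like interneurons Gria1 held 17.2%. Gria4 held 0.557% in CA1-like neurons. In Pvalb-like interneurons the exact interval of the Gria2 share ran from 61.6% to 64.4% in TAFE3_oil and from 53.1% to 57.8% in FE3, so this pair differed beyond counting error, with no replicate library to show the spread between mice. The shares count RNA and do not show how many receptors lack GluA2.

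**Figure D1:**
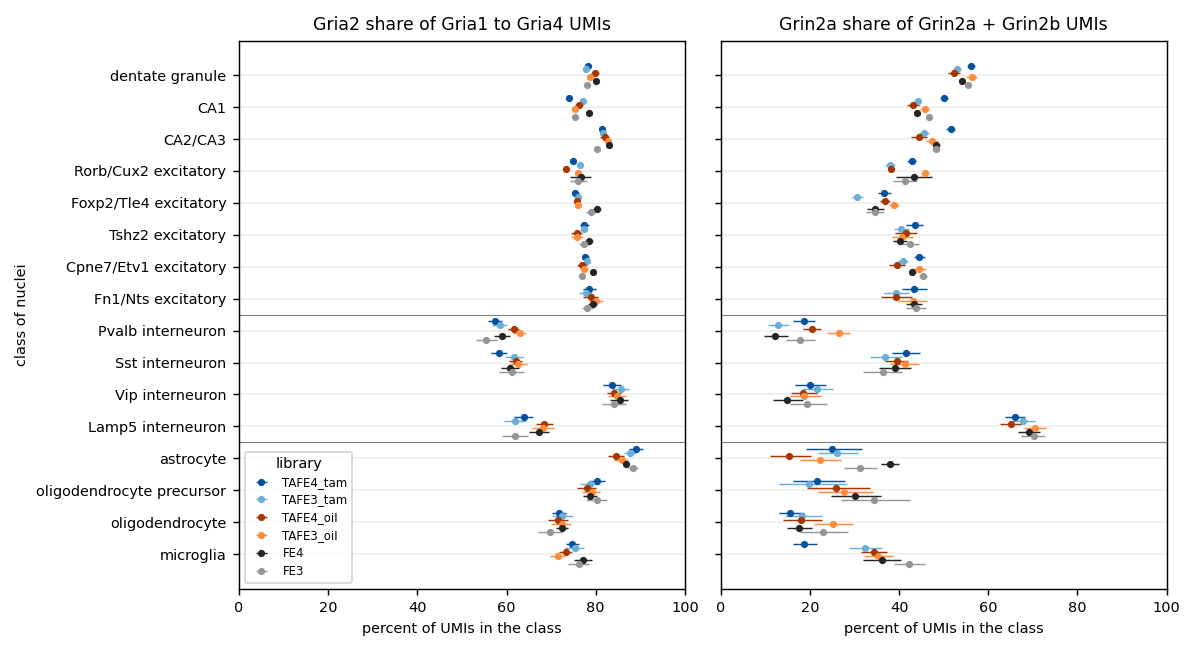
Share of AMPA subunit UMIs that are Gria2, and share of Grin2a and Grin2b UMIs that are Grin2a, in percent by class, with a point for each of the 6 libraries. Pvalb-like, Sst-like and Lamp5-like interneurons sit lowest among the plotted neuron classes for Gria2, and Lamp5-like interneurons sit highest for Grin2a, with Pvalb-like and Vip-like interneurons lowest.

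Among the NMDA receptor subunits, Grin1, which every NMDA receptor needs, was nearly level across neurons. Its mean over libraries ran from 331 CPM in Lamp5-like interneurons to 469 CPM in Fn1/Nts neurons, a 1.41-fold difference, the smallest of the 10 members. In CA1-like neurons Grin1 stood at 476 CPM in TAFE4_tam, 404 CPM in TAFE3_tam, 384 CPM in TAFE4_oil, 401 CPM in TAFE3_oil, 447 CPM in FE4 and 480 CPM in FE3. Ranges of neighbouring classes overlapped along the whole order of neurons.

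Grin2a, the subunit of mature forebrain synapses, divided neurons most sharply of the forebrain pair. It was highest in CA1-like neurons, with 2644 CPM in TAFE4_tam, 2194 CPM in TAFE3_tam, 1766 CPM in TAFE4_oil, 2260 CPM in TAFE3_oil, 2334 CPM in FE4 and 2570 CPM in FE3. Dentate granule-like neurons (1582 to 2147 CPM) and Lamp5-like interneurons (1620 to 2171 CPM) were next, and their ranges overlapped each other and that of CA1-like neurons. Pvalb-like interneurons held 209 CPM in TAFE4_tam, 148 CPM in TAFE3_tam, 233 CPM in TAFE4_oil, 307 CPM in TAFE3_oil, 143 CPM in FE4 and 232 CPM in FE3, a 10.8-fold lower mean than CA1-like neurons. Within interneurons, Lamp5-like cells stood apart from the Sst-like (502 to 670 CPM), Vip-like (235 to 358 CPM) and Pvalb-like classes in every library.

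Grin2b, whose GluN2B subunit dominates early and gives slow currents, was highest in CA1-like neurons too: 2637 CPM in TAFE4_tam, 2771 CPM in TAFE3_tam, 2335 CPM in TAFE4_oil, 2683 CPM in TAFE3_oil, 2964 CPM in FE4 and 2941 CPM in FE3, all above any value of another of the 16 classes. It was lowest among neurons in Lamp5-like interneurons, at 834 to 923 CPM. The share of Grin2a among Grin2a and Grin2b UMIs was therefore highest in Lamp5-like interneurons (65.1% to 70.5%), lower in dentate granule-like (52.3% to 56.3%) and CA1-like neurons (43.1% to 50.1%), and lowest in Vip-like (15.0% to 21.6%) and Pvalb-like interneurons (12.2% to 26.4%). Lamp5-like interneurons did not overlap with any other class in that share.

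The remaining NMDA members were each concentrated in few classes. Grin2c, known as the astrocyte and cerebellar granule cell subunit, stood in astrocytes at 332 CPM in TAFE4_tam, 282 CPM in TAFE3_tam, 296 CPM in TAFE4_oil, 255 CPM in TAFE3_oil, 283 CPM in FE4 and 383 CPM in FE3. The next class by mean, Pvalb-like interneurons, ran from 3.65 to 30.5 CPM, so astrocytes were apart in every library. In FE3 astrocytes the exact interval of Grin2c was 345 to 425 CPM on 367 UMIs.

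Grin2d, a subunit known from interneurons and the brainstem, was highest in Vip-like interneurons, at 106 CPM in TAFE4_tam, 107 CPM in TAFE3_tam, 129 CPM in TAFE4_oil, 81.9 CPM in TAFE3_oil, 126 CPM in FE4 and 144 CPM in FE3. Lamp5-like interneurons (59.3 to 116 CPM) overlapped with them, and Sst-like and Pvalb-like interneurons averaged 68.9 and 49.9 CPM. All 8 excitatory classes stayed between 1.66 and 15.0 CPM of Grin2d. The interneuron and excitatory values did not overlap.

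Grin3a was highest in Sst-like interneurons, which target dendrites: 292 CPM in TAFE4_tam, 295 CPM in TAFE3_tam, 270 CPM in TAFE4_oil, 289 CPM in TAFE3_oil, 241 CPM in FE4 and 221 CPM in FE3. Oligodendrocyte precursors came second, with 159 CPM in TAFE4_tam, 137 CPM in TAFE3_tam, 120 CPM in TAFE4_oil, 101 CPM in TAFE3_oil, 130 CPM in FE4 and 131 CPM in FE3. Both lay above all others of the 16 classes in each library and did not overlap. Outside these, an unnamed interneuron subcluster of 42 nuclei led by Chodl held 257 CPM of Grin3a on 33 UMIs, inside the Sst-like range. The subcluster marked by Cbln4 held 121 CPM, inside the range of oligodendrocyte precursors. Vip-like and Lamp5-like interneurons averaged 70.3 and 67.0 CPM of Grin3a, and CA2/CA3-like neurons 8.71 CPM, the lowest class of neurons.

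The class with the highest mean level of the 16 was the same for 10 of 10 members whichever library was left out. For 5 of the 10, Gria4, Grin2a, Grin2b, Grin2c and Grin3a, that class was also the highest within each of the 6 libraries. Grin3b was close to absent in this tissue, with means over libraries from 0 CPM in microglia and Lamp5-like interneurons to 3.09 CPM in oligodendrocyte precursors, so no comparison of it was made.

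In glia, RNA set free from neurons can enter droplets, so each member's level as a percent of its level in neurons of that library was set against the same percent for 12 neuronal transcripts such as Snap25 and Syt1. That list stood in astrocytes at 16.2% to 22.6% of its neuronal level, in oligodendrocyte precursors at 24.1% to 31.3% and in oligodendrocytes at 18.9% to 24.3%. In microglia it stood at 24.7% in TAFE4_tam, 40.3% in TAFE3_tam, 41.0% in TAFE4_oil, 41.4% in TAFE3_oil, 36.8% in FE4 and 70.4% in FE3. Within each of the 6 libraries microglia had the highest percent of the 4 glial classes, by little in TAFE4_tam, where oligodendrocyte precursors stood at 24.2%.

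Grin2c in astrocytes was 320 to 805 times the list. A Grin2c UMI was found in 39.0% to 46.6% of astrocytes, and in 0.5% to 2.3% of microglia and 0.1% to 1.2% of CA1-like neurons. Median depths over libraries were 1498 to 1862 UMIs in astrocytes, 716 to 1187 in microglia and 2789 to 3841 in CA1-like neurons. After each nucleus was thinned to 1000 UMIs, which left out 10 to 90 astrocytes and 3 to 45 CA1-like neurons per library, the shares were 22.8% to 32.8% of astrocytes and 0% to 0.459% of CA1-like neurons. Gria2 in astrocytes was 2.88 to 4.24 times the list. Its percent of the neuronal level was 69.5% in TAFE4_tam, 67.5% in TAFE3_tam, 57.6% in TAFE4_oil, 56.5% in TAFE3_oil, 69.2% in FE4 and 77.3% in FE3, while the highest single gene of the list reached 61.8% to 85.4%, so Gria2 stood above the summed list and not above each of its genes.

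Grin2a in astrocytes was at 0.387 to 1.10 times the list, so it did not stand clear of the level of the neuronal transcripts there. In oligodendrocyte precursors Grin3a was 11.4 to 17.8 times the list, Gria4 2.74 to 7.27 times, Gria2 2.44 to 3.43 times and Gria3 2.02 to 2.99 times, while Grin2a was at 0.203 to 0.409 times. Gria1 in oligodendrocytes was 2.28 to 2.57 times the list. In microglia Gria2 was 1.09 to 1.56, Gria3 1.06 to 1.28, Grin1 1.04 to 1.51 and Grin2b 0.945 to 1.17 times the list, so these AMPA and NMDA members stood near the level of the neuronal list there.

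**Figure D2:**
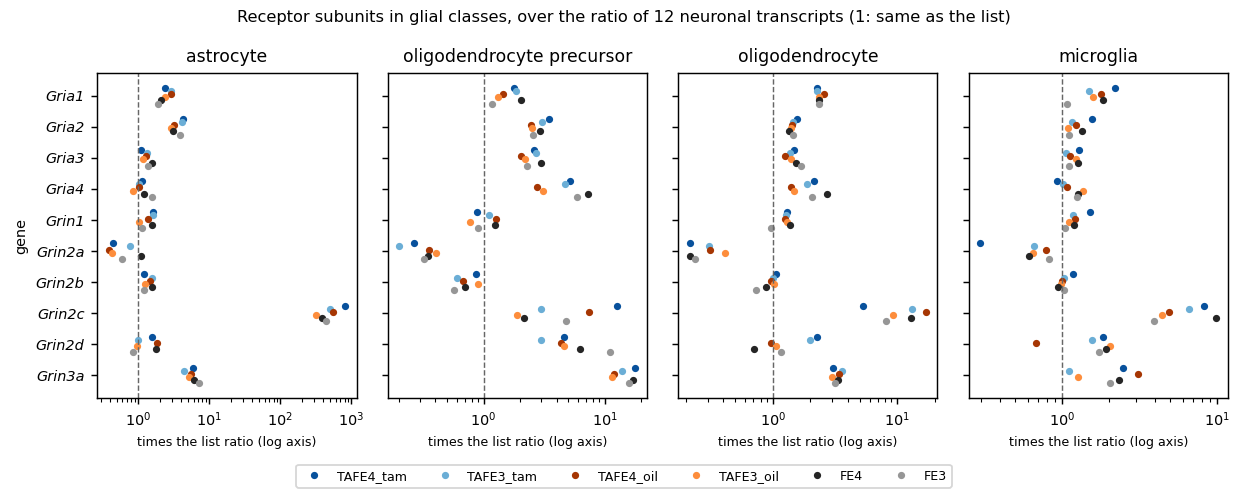
Each member's ratio of glial to neuronal CPM divided by that ratio for 12 summed neuronal transcripts, on log axes, in 4 glial classes with a point per library; the dashed line at 1 is the level of the list. Grin2c in astrocytes (320 to 805) and Grin3a in oligodendrocyte precursors (11.4 to 17.8) lie far to the right, and most microglial points lie near 1.

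Differences between libraries were read as log2 ratios of CPM within a class, and a value was counted where it passed 1.5-fold with at least 100 UMIs over both libraries. In the TAFE4_oil library against FE4, 22 of 120 member values passed, 3 higher and 19 lower, beside 23.3% of all gene values, 17.5% higher and 5.82% lower. In TAFE3_oil against FE3, 14 of 114 passed, 1 higher and 13 lower, beside 11.6% of all gene values, 4.71% higher and 6.92% lower. The remaining 40 of 160 values in TAFE4_oil against FE4 and 46 in TAFE3_oil against FE3 had too few UMIs, most of them of Grin2c, Grin2d and Grin3a.

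Glial classes held most of the counted values. In the 12 neuron classes 9 of 90 values passed in TAFE4_oil against FE4, beside 22.4% of all gene values there, and 6 of 88 in TAFE3_oil against FE3, beside 10.4%. In glia 13 of 30 passed in TAFE4_oil against FE4, beside 27.5%, and 8 of 26 in TAFE3_oil against FE3, beside 18.9%. The median log2 ratio of the members in TAFE4_oil against FE4 was -0.27, against 0.11 for all gene values, and in TAFE3_oil against FE3 it was -0.08, against -0.07.

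With TMM factors, which centre each class on its bulk of genes, 43 of 120 member values passed in TAFE4_oil against FE4, 1 higher and 42 lower, beside 23.05% of all gene values on that scale, and in FE4 against FE3 22 of 115, 18 higher and 4 lower, beside 7.63%. The factors moved the median of all gene values to -0.06 in TAFE4_oil against FE4 and to 0.01 in FE4 against FE3, where it had been 0.11 and -0.12. The count in TAFE3_oil against FE3 was then 15 of 114, with no share of all gene values set beside it. Direction counts in the APOE4 pair therefore move with the scaling.

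Grin3a was the 1 member that passed 1.5-fold in the same direction in both APOE backgrounds in neurons. In CA1-like neurons it stood at 24.4 CPM in TAFE4_tam (66 UMIs), 26.8 CPM in TAFE3_tam (76 UMIs), 12.8 CPM in TAFE4_oil (16 UMIs), 17.7 CPM in TAFE3_oil (32 UMIs), 30.2 CPM in FE4 (184 UMIs) and 27.8 CPM in FE3 (127 UMIs). Both oil libraries were lower than all the others. The log2 ratio of Grin3a was -1.24 (-2.08 to -0.50) in TAFE4_oil against FE4 and -0.65 (-1.26 to -0.08) in TAFE3_oil against FE3. With coarser clusters (resolution 0.5) these Grin3a ratios in CA1-like neurons were -0.55 and -0.36, short of 1.5-fold, and with doublets kept the second was -0.49. The CA1-like class held 297 nuclei in TAFE4_oil, 504 in TAFE3_oil, 1862 in FE4 and 1538 in FE3. Fibcd1, a marker of this class, stood at 152 CPM in TAFE4_oil, 142 CPM in TAFE3_oil, 197 CPM in FE4 and 229 CPM in FE3. The markers Wfs1 and Spink8 were also lower in oil in both backgrounds, and Mpped1 and Pou3f1 higher. The kinds of nuclei in this class and the level of Grin3a per nucleus cannot be told apart.

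In the Rorb/Cux2 class Grin3a stood at 24.2 CPM in TAFE4_tam, 48.0 CPM in TAFE3_tam, 17.4 CPM in TAFE4_oil, 14.1 CPM in TAFE3_oil, 52.5 CPM in FE4 and 35.7 CPM in FE3. The FE4 and FE3 levels rest on 12 and 17 UMIs. The log2 ratio was -1.59 (-2.43 to -0.61) in TAFE4_oil against FE4 and -1.34 (-2.10 to -0.50) in TAFE3_oil against FE3.

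In the Foxp2/Tle4 class Grin3a stood at 36.4 CPM in TAFE4_tam, 40.8 CPM in TAFE3_tam, 23.7 CPM in TAFE4_oil, 28.4 CPM in TAFE3_oil, 45.1 CPM in FE4 and 49.3 CPM in FE3. The log2 ratio of Grin3a there was -0.93 (-1.42 to -0.43) in TAFE4_oil against FE4 and -0.79 (-1.29 to -0.28) in TAFE3_oil against FE3. Some genes that mark these 2 classes also differed between the same libraries, and not all in 1 direction. Rorb in the Rorb/Cux2 class was at 257 CPM in TAFE4_tam, 117 CPM in TAFE3_tam, 363 CPM in TAFE4_oil, 495 CPM in TAFE3_oil, 83.1 CPM in FE4 and 75.7 CPM in FE3. Cux2 there was higher in TAFE4_oil than in FE4 (187 against 118 CPM) and lower in TAFE3_oil than in FE3 (147 against 198 CPM). Tshz2 in the Foxp2/Tle4 class was at 789 CPM in TAFE4_tam, 781 CPM in TAFE3_tam, 476 CPM in TAFE4_oil, 483 CPM in TAFE3_oil, 1721 CPM in FE4 and 1233 CPM in FE3. Foxp2 there was higher in oil, at 113 CPM in TAFE4_oil against 33.6 CPM in FE4 and 107 CPM in TAFE3_oil against 32.2 CPM in FE3. Tle4, Fezf2 and Hs3st4 were lower in oil in both backgrounds, by smaller ratios than Tshz2. The kinds of nuclei that each library put into these 2 classes and the level of Grin3a per nucleus cannot be told apart.

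Grin3a did not pass 1.5-fold in the Sst-like interneurons where it is highest, with log2 ratios of 0.16 in TAFE4_oil against FE4 and 0.39 in TAFE3_oil against FE3. In Cpne7/Etv1 neurons Grin3a stood at 31.9 CPM in TAFE4_oil against 31.7 CPM in FE4, and at 26.5 CPM in TAFE3_oil against 31.1 CPM in FE3. The low oil values of Grin3a were thus seen in some excitatory classes and not in each, and the difference between classes was not tested.

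Under tamoxifen Grin3a passed 1.5-fold upward in dentate granule-like neurons in both backgrounds. It stood there at 24.3 CPM in TAFE4_tam, 27.4 CPM in TAFE3_tam, 14.9 CPM in TAFE4_oil, 14.3 CPM in TAFE3_oil, 21.8 CPM in FE4 and 19.9 CPM in FE3, so that both oil libraries were lowest. The log2 ratio of Grin3a was 0.70 (0.05 to 1.41) in TAFE4_tam against TAFE4_oil and 0.94 (0.28 to 1.65) in TAFE3_tam against TAFE3_oil. These ratios share the oil library with the ratios against FE, so a low oil value sets both. The class marker C1ql2 stood there at 257 CPM in TAFE4_oil, 282 CPM in TAFE3_oil, 357 CPM in FE4 and 439 CPM in FE3. It was at 266 CPM in TAFE4_tam and 317 CPM in TAFE3_tam, while the marker Prox1 ran from 176 to 201 CPM. Whether the kinds of nuclei in this class differed between libraries was not tested.

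**Figure D3:**
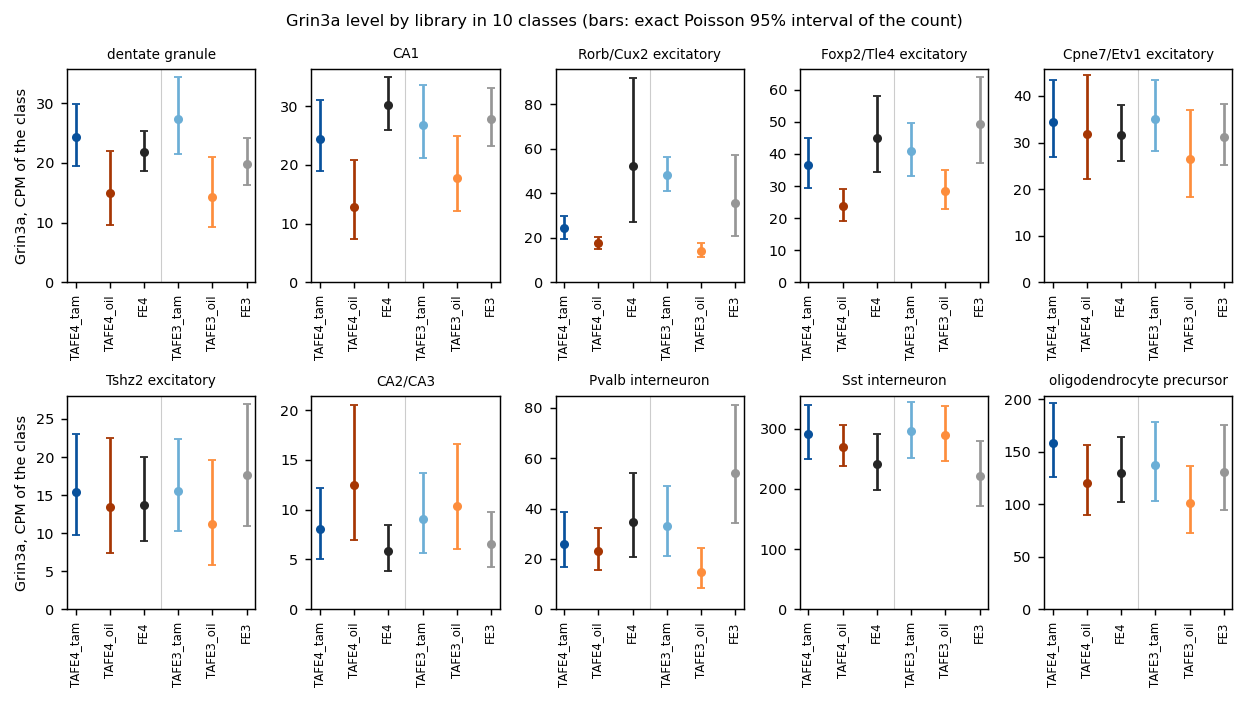
Grin3a level by library, as CPM of the class with exact 95% counting intervals, in classes of excitatory neurons, Sst-like interneurons and oligodendrocyte precursors. In CA1-like and dentate granule-like neurons both oil libraries sit lowest (12.8 and 17.7 CPM, and 14.9 and 14.3 CPM), while in Sst-like interneurons the oil libraries (270 and 289 CPM) sit above the FE libraries (241 and 221 CPM).

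Over both backgrounds, 7 of 114 member values passed 1.5-fold in the same direction in oil against FE (6.14%, against 4.06% of all gene values), all of them lower. Besides Grin3a in 3 excitatory classes these were Grin2a in astrocytes, Gria1 in oligodendrocytes, and Gria1 and Gria2 in microglia. Each of the 7 also passed in both backgrounds with TMM factors, and 3 lost a call under other settings: Grin3a in CA1-like neurons as given above, and Gria1 in oligodendrocytes and Gria2 in microglia as given below. Not every setting reached each value. Of 811 member values, 627 could be read with at least 300 UMIs and 446 at resolution 0.5. The Grin3a values in the 3 excitatory classes had under 300 UMIs, so that setting is no check of them. Grin2a in astrocytes stood at 94.9 CPM in TAFE4_tam, 144 CPM in TAFE3_tam, 59.2 CPM in TAFE4_oil, 93.8 CPM in TAFE3_oil, 414 CPM in FE4 and 206 CPM in FE3, with log2 ratios of -2.81 in TAFE4_oil against FE4 and -1.13 in TAFE3_oil against FE3. That is the member value furthest from 1-fold in any comparison, yet Grin2a was at or below the neuronal list in astrocytes of all libraries but FE4, where it was 1.10 times the list.

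Gria1 in oligodendrocytes stood at 173 CPM in TAFE4_oil against 285 CPM in FE4, and at 196 CPM in TAFE3_oil against 306 CPM in FE3, log2 ratios of -0.72 (-0.98 to -0.46) and -0.64 (-0.95 to -0.33). With coarser clusters (resolution 0.5) these were -0.52 and -0.55, short of 1.5-fold. The neuronal list in oligodendrocytes was at 21.9% in TAFE4_oil and 23.1% in FE4, and at 24.3% in TAFE3_oil and 22.5% in FE3, a difference under 10% of its value in either pair. Gria2 in microglia stood at 1761 CPM in TAFE4_oil against 2680 CPM in FE4 and at 1716 CPM in TAFE3_oil against 3105 CPM in FE3. The log2 ratio of Gria2 was -0.61 in TAFE4_oil against FE4 and -0.86 in TAFE3_oil against FE3. The neuronal list in microglia was lower in TAFE3_oil (41.4%) than in FE3 (70.4%), and higher in TAFE4_oil (41.0%) than in FE4 (36.8%), so it moved with Gria2 in the APOE3 pair and opposite to it in the APOE4 pair. Gria1 in microglia ran from 227 to 437 CPM over the libraries, with a log2 ratio of -0.94 in TAFE3_oil against FE3. It stands beside the same moves of the list, and the part of free neuronal RNA in it was not tested. The Gria2 ratio in TAFE3_oil against FE3 fell short of 1.5-fold with doublets kept (-0.48), without the mitochondrial filter (-0.52) and where nuclei under 1000 UMIs were left out (-0.55). The ratio in TAFE4_oil against FE4 fell short when mitochondrial and ribosomal protein genes were left out of the class total (-0.57).

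In astrocytes, where APOE was lower under tamoxifen, Gria2 stood at 2807 CPM in TAFE4_tam, 2760 CPM in TAFE3_tam, 2000 CPM in TAFE4_oil, 2145 CPM in TAFE3_oil, 3711 CPM in FE4 and 3091 CPM in FE3. Both oil libraries were lowest, and the log2 ratio of Gria2 was -0.89 (-0.98 to -0.81) in TAFE4_oil against FE4. In TAFE3_oil against FE3 it was -0.53, short of 1.5-fold, but passed with TMM factors (-0.60) and without the mitochondrial filter (-0.87). Grin2c in astrocytes passed in TAFE3_oil against FE3, at -0.59 (-0.84 to -0.34), just past the limit, and came to -0.35 with doublets kept, short of it. It did not pass in TAFE4_oil against FE4. Aqp4, an astrocyte marker, stood at 677 CPM in TAFE4_oil against 391 CPM in FE4 and at 662 CPM in TAFE3_oil against 367 CPM in FE3. The markers Gja1, Slc1a2 and Aldh1l1 were also higher in oil in both backgrounds. The marker Slc1a3 was lower, at 1841 CPM in TAFE4_oil against 2080 CPM in FE4 and at 1742 CPM in TAFE3_oil against 2227 CPM in FE3. The astrocyte markers thus did not all move in the same direction.

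**Figure D4:**
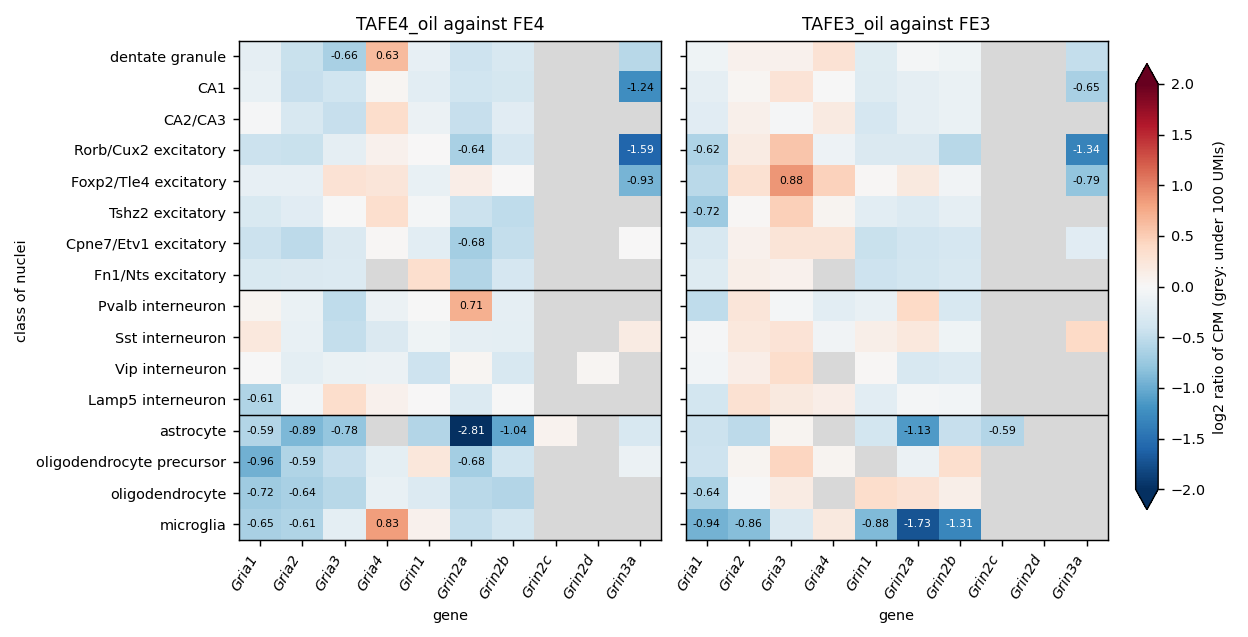
Log2 ratio of CPM for each member and class in TAFE4_oil against FE4 and in TAFE3_oil against FE3, with red for higher and blue for lower in the oil library, colours held at 2 beyond that ratio, and numbers on values past 1.5-fold. Lower values gather in the glial rows and in the Grin3a column, where CA1-like neurons read -1.24 and -0.65.

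Gria1 moved by small ratios in most excitatory classes, and in the same direction in all. It was lower in the oil library than in the FE library in 8 of 8 excitatory classes in both backgrounds, with median log2 ratios of -0.24 (range over classes -0.44 to -0.02) in TAFE4_oil against FE4 and -0.29 (-0.72 to -0.08) in TAFE3_oil against FE3. It was higher in the tamoxifen than in the oil library in 8 of 8 in both, with medians of 0.36 (0.12 to 0.62) in TAFE4_tam against TAFE4_oil and 0.11 (0.00 to 0.42) in TAFE3_tam against TAFE3_oil. Of 1049 genes with enough UMIs in these classes, 15 (1.43%) had the oil libraries lowest throughout like this, Gria1 alone among the 6 members that could be read. Classes of 1 library share its preparation and all 4 comparisons share the oil libraries, so these are not independent counts, and with TMM factors Gria1 no longer met the pattern in each class.

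Without P301S tau, the FE4 library was compared with FE3. Gria2 was higher in FE4 in 12 of 12 neuron classes, by log2 ratios of 0.26 to 0.51, none past 1.5-fold, and FE4 had the highest Gria2 level of the 6 libraries in each of those classes. Of 489 genes with enough UMIs in all 12 classes, 37 (7.57%) were higher in FE4 in each. Gria2 was in turn lower in TAFE4_oil than in FE4 in 12 of 12, by -0.52 to -0.05, as were 89 of 1054 genes (8.44%). In TAFE3_oil Gria2 was higher than in FE3 in 12 of 12, by 0.03 to 0.31, as were 26 of 596 genes (4.36%). The difference between the APOE4 and APOE3 ratios was not tested. The directions of Gria2 were the same with TMM factors, but more genes then went 1 way in all 12 classes. On that scale 13.7% of genes were higher in FE4 than in FE3, 20.2% lower in TAFE4_oil than in FE4 and 6.04% higher in TAFE3_oil than in FE3. With TMM factors 2 of the Gria2 ratios in FE4 against FE3, those of dentate granule-like and Cpne7/Etv1 neurons, passed 1.5-fold. FE4 was also the library with the smallest share of barcodes over the mitochondrial limit, 8.99%, against 30.2% in FE3. The part of nuclei quality in these Gria2 differences was not tested.

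Counted past 1.5-fold, 10 of 115 member values differed in FE4 against FE3, 6 higher and 4 lower, beside 9.16% of all gene values, 1.72% higher and 7.44% lower. Gria3 made up 5 of the 6 higher values. In the Rorb/Cux2 class Gria3 was at 883 CPM in FE4 against 465 CPM in FE3 (log2 ratio 0.93, 0.64 to 1.21), in Sst-like interneurons at 1132 CPM in FE4 against 721 CPM in FE3 (0.65), and in Cpne7/Etv1 neurons at 1024 CPM in FE4 against 676 CPM in FE3 (0.60). It was also higher in FE4 in oligodendrocyte precursors, at 639 CPM against 377 CPM in FE3 (0.76), and in astrocytes, at 297 CPM against 163 CPM in FE3 (0.86). With doublets kept 3 of these 5 ratios, those in Cpne7/Etv1 neurons, Sst-like interneurons and astrocytes, each came to 0.58, just short of 1.5-fold. Without the mitochondrial filter Gria3 in Sst-like interneurons came to 0.58, and without mitochondrial and ribosomal protein genes in the class total Gria3 in Cpne7/Etv1 neurons came to 0.57. In all 8 excitatory classes Gria3 was higher in FE4, by 0.47 to 0.93, as were 77 of 941 genes (8.18%) with enough UMIs there. With TMM factors 150 of these genes (15.9%), Gria3 among them, were higher in each. Gria3 was not higher in FE4 in microglia, at 394 CPM against 458 CPM in FE3.

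Grin2a passed 1.5-fold in 3 comparisons of Pvalb-like interneurons, its lowest class of neurons. Its log2 ratio there was -0.70 (-1.15 to -0.26) in FE4 against FE3, 0.71 (0.35 to 1.09) in TAFE4_oil against FE4, and -1.05 (-1.38 to -0.73) in TAFE3_tam against TAFE3_oil. The first fell short of 1.5-fold with doublets kept (-0.53) and without the mitochondrial filter (-0.55), and the second with doublets kept (0.54) and with TMM factors (0.54). The 6 Grin2a values in that class, given above, put TAFE3_oil highest and FE4 lowest, with no order by genotype. In Cpne7/Etv1 neurons Grin2a stood at 1002 CPM in TAFE4_oil against 1602 CPM in FE4 (-0.68, -0.77 to -0.58) and in the Rorb/Cux2 class at 742 CPM in TAFE4_oil against 1159 CPM in FE4 (-0.64). The Rorb/Cux2 ratio fell short of 1.5-fold with TMM factors (-0.58) and without the mitochondrial filter (-0.51). In those classes the TAFE3_oil against FE3 ratios of Grin2a did not pass 1.5-fold.

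Tamoxifen against oil gave 10 of 118 member values past 1.5-fold in TAFE4_tam against TAFE4_oil, 5 higher and 5 lower, beside 7.98% of all gene values, 2.89% higher and 5.09% lower. In TAFE3_tam against TAFE3_oil it gave 8 of 114, 4 higher and 4 lower, beside 4.19%, 2.65% higher and 1.55% lower. In both backgrounds 2 of 112 values passed in the same direction (1.79%, against 0.389% of all gene values): Grin3a in dentate granule-like neurons, described above, and Gria4 in microglia, lower in the tamoxifen library. Gria4 in microglia stood at 29 CPM in TAFE4_tam against 70.8 CPM in TAFE4_oil (-1.29, -1.83 to -0.76) and at 54.0 CPM in TAFE3_tam against 84.2 CPM in TAFE3_oil (-0.64, -1.25 to -0.06), and was 0.926 to 1.36 times the neuronal list over the libraries. With doublets kept the Gria4 ratios were -0.56 and -0.22, both short of 1.5-fold. In Lamp5-like interneurons Gria1 stood at 653 CPM in TAFE4_tam against 386 CPM in TAFE4_oil (0.76, 0.53 to 0.98), and Gria3 at 260 CPM in TAFE4_tam against 415 CPM in TAFE4_oil (-0.68, -0.96 to -0.40; -0.58 with TMM factors, just short of 1.5-fold). Neither passed in TAFE3_tam against TAFE3_oil.

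Between the APOE alleles in P301S mice few member values differed. In TAFE4_oil against TAFE3_oil 5 of 114 passed 1.5-fold, beside 3.98% of all gene values, and in TAFE4_tam against TAFE3_tam 4 of 116, beside 6.34%. In neurons that was 1 of 87 and 1 of 90, beside 4.15% and 5.52%. The first was Grin2d in Vip-like interneurons, at 129 CPM in TAFE4_oil against 81.9 CPM in TAFE3_oil (72 and 28 UMIs, log2 ratio 0.65, 0.01 to 1.34), and the second Grin3a in the Rorb/Cux2 class, at 24.2 CPM in TAFE4_tam against 48.0 CPM in TAFE3_tam (-0.99, -1.38 to -0.61). The Grin2d ratio fell short of 1.5-fold without the mitochondrial filter (0.52) and with doublets kept (0.50).

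Partner genes of the receptors were read in the 8 excitatory classes with the same rule. Among all gene values there, 16.5% were higher and 5.88% lower in TAFE4_oil against FE4, and 3.63% higher and 6.91% lower in TAFE3_oil against FE3. Of 77 values of 15 AMPA receptor auxiliary proteins, 15 were higher and 7 lower past 1.5-fold in TAFE4_oil against FE4, and of 74 values 0 were higher and 4 lower in TAFE3_oil against FE3. Kainate and delta receptor genes gave 3 higher and 8 lower of 48 in TAFE4_oil against FE4, and 1 higher and 3 lower of 45 in TAFE3_oil against FE3. The members themselves gave 1 higher and 1 lower of 31 AMPA values and 0 higher and 5 lower of 29 NMDA values in TAFE4_oil against FE4, and 1 higher and 2 lower of 31 AMPA values and 0 higher and 3 lower of 29 NMDA values in TAFE3_oil against FE3.

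Scaffold and trafficking genes gave 8 higher and 6 lower of 107 in TAFE4_oil against FE4, and 3 higher and 11 lower of 105 in TAFE3_oil against FE3. Genes of synaptic pentraxins and receptor clustering gave 9 higher and 1 lower of 43 in TAFE4_oil against FE4, and 4 higher and 4 lower of 43 in TAFE3_oil against FE3. RNA editing enzymes, which recode the calcium site of Gria2 transcripts, gave 2 higher and 0 lower of 15 in TAFE4_oil against FE4, and 0 of 15 in TAFE3_oil against FE3. Genes that handle the NMDA receptor co-agonists gave 0 of 10 in TAFE4_oil against FE4 and 0 higher and 2 lower of 8 in TAFE3_oil against FE3.

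A few partner genes passed 1.5-fold in both backgrounds. In CA1-like neurons Nptx2, a secreted pentraxin that gathers AMPA receptors, stood at 48.1 CPM in TAFE4_oil against 25.8 CPM in FE4 and at 48.2 CPM in TAFE3_oil against 31.8 CPM in FE3 (log2 ratios 0.90 and 0.60). Lrrtm2, a synapse-organising adhesion protein that binds neurexins, was higher in oil in the same neurons, at 49.7 CPM in TAFE4_oil against 24.5 CPM in FE4 and at 38.7 CPM in TAFE3_oil against 25 CPM in FE3 (1.02 and 0.63). These higher levels stand beside the lower Grin3a in the same class of nuclei, and beside the marker shifts of that class given above.

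In the Foxp2/Tle4 class Homer1, a postsynaptic scaffold, stood at 184 CPM in TAFE4_oil against 65.0 CPM in FE4 and at 188 CPM in TAFE3_oil against 116 CPM in FE3. In the Rorb/Cux2 class Lrrtm1, another neurexin ligand, stood at 35.3 CPM in TAFE4_oil against 78.7 CPM in FE4 and at 38.1 CPM in TAFE3_oil against 67.3 CPM in FE3. The marker shifts of these 2 classes given above stand beside these partner genes too. Under tamoxifen Camk2a, a kinase of excitatory synapses, was lower in oligodendrocyte precursors, at 153 CPM in TAFE4_tam against 260 CPM in TAFE4_oil and at 154 CPM in TAFE3_tam against 234 CPM in TAFE3_oil. Camk2a is itself on the list of neuronal transcripts that measure free RNA in glia.

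Over the 16 classes, each taken as the mean of 6 libraries, the genes whose levels most resembled a member's were found by Pearson's r of log2(CPM + 1). The points share libraries and differ in depth, so r is only a description. Grin2c was most like the astrocyte genes Etnppl (0.96), Plcd4 (0.96) and Aqp4 (0.95), and Grin2d most like Kcnip1 (0.96), Dlx1as (0.94) and the kainate receptor gene Grik1 (0.94), which mark interneurons. Grin2a was most like Camkv (0.91) and Rbfox3 (0.90), Gria2 most like Kdm6b (0.91) and Agap2 (0.90), and Gria1 most like Cacng8 (0.81), which encodes an AMPA receptor auxiliary protein. Gria4 was most like Dcx (0.96), a microtubule protein of young neurons, Grin1 most like Morc2b (0.98), Gria3 most like Pcsk7 (0.89), Grin2b most like Rasgef1a (0.94) and Grin3a most like Ptdss1 (0.88).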

How the data were processed

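Each deposited matrix gives raw UMI counts for genes and barcodes. Its header names Cell Ranger 3.1.0 as the authors' software, and the submitters' processing notes name mm10 and, without a version, Seurat. Sequencing of 3′ ends and kits for 5′ ends are both named in the labels. All columns were mapped, leaving 0 unused. The 10 members, the lists and the rules were chosen with earlier results of these data known.

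Nuclei were kept with at least 500 UMIs, 300 genes and at most 5% mitochondrial UMIs. Doublets were scored with scrublet in scanpy 1.11.5. Its own threshold marked from 0.00860% of nuclei in TAFE3_oil to 14.5% in TAFE4_tam, so, chosen after seeing the data, the top 0.8% per 1000 nuclei were left out in every library instead. Nuclei of all libraries were clustered on 2000 variable genes without glutamate receptor, listed, mitochondrial and sex-linked genes (30 principal components, 15 neighbours, leidenalg 0.10.2 at resolution 1, 30 clusters), and interneuron clusters were split again at resolution 0.6. Classes take their names from markers or leading genes; 9 clusters and 5 interneuron subclusters were left unnamed. Differences from other accounts of these libraries may come from these rebuilt names.

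Levels are sums of UMIs over the nuclei of a class in 1 library, scaled to the total of that sum. Ratios have exact conditional binomial, levels exact Poisson and shares exact Clopper-Pearson intervals of 95%, all for counting error alone; counts under 3 were set to 3. With 1 library per group, no test was made. Values were counted past 1.5-fold with at least 100 UMIs over both libraries. All members are named; of partner lists, genes past 1.5-fold in the same direction in both backgrounds, at most 3 per list, from which examples are given, and per member up to 3 genes of highest Pearson correlation over classes among genes with at least 1000 UMIs. Some genes that these rules name are not reported here. edgeR 4.0.16 gave TMM factors as an alternative. Coordinates and names are from GENCODE vM21, promoters from RefSeq. The ratio script was tested on simulated counts. The alternatives tried are given with their effects at the end.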

Additional observations from a re-analysis of the deposited data

How the results depend on the processing

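No paired analysis was possible because each group is 1 library. The highest class of each member and the subunit shares described for neurons kept their order when any 1 library was left out. The size of the moves in shares and levels is no check, since 1 of 6 libraries can move a mean by only part of their spread. Percents of member values past 1.5-fold moved by over 1.5 times in these cases. Apart from shares given above, those of all gene values under each setting are not set beside them. The moves are therefore not read as particular to the members. With doublets kept they were 3.42% in FE4 against FE3 and 2.54% in TAFE3_tam against TAFE3_oil. With TMM factors they were 35.8% in TAFE4_oil against FE4 and 19.1% for FE4 against FE3. With at least 300 UMIs they were 1.16% in TAFE3_tam against TAFE3_oil, 5.43% in TAFE4_tam against TAFE4_oil, 0% in TAFE4_oil against TAFE3_oil and 2.25% in TAFE4_tam against TAFE3_tam. With at least 20 UMIs they were 19.9% in TAFE3_oil against FE3, 10.8% in TAFE3_tam against TAFE3_oil, 8.09% in TAFE4_oil against TAFE3_oil and 7.80% in TAFE4_tam against TAFE3_tam. In neuron classes alone, an alternative chosen after seeing the data, they were 4.65% in FE4 against FE3, 6.82% in TAFE3_oil against FE3, 10% in TAFE4_oil against FE4, 4.49% in TAFE3_tam against TAFE3_oil, 5.49% in TAFE4_tam against TAFE4_oil, 1.15% in TAFE4_oil against TAFE3_oil and 1.11% in TAFE4_tam against TAFE3_tam. Without the Rorb/Cux2 and Foxp2/Tle4 classes, also chosen after seeing the data, they moved by less, to 18.3% in TAFE4_oil against FE4 and 10.2% in TAFE3_oil against FE3.

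Log2 ratios past 1.5-fold that turned round were all in microglia. Without the mitochondrial filter Grin2a came to 0.080 in FE4 against FE3 and 0.28 in TAFE4_tam against TAFE3_tam, and Grin2b to 0.38 in TAFE4_tam against TAFE3_tam. With doublets kept Grin2a came to 0.28 in TAFE4_tam against TAFE4_oil, and Grin2c in astrocytes averaged 243 CPM, 212 times the neuronal list. Ratios under 1.5-fold that passed in the other direction were those of Grin2a: -1.27 in microglia of TAFE3_tam against TAFE3_oil without the mitochondrial filter, 0.64 in oligodendrocytes of TAFE4_tam against TAFE3_tam with doublets kept, and -1.48 in oligodendrocytes of TAFE4_tam against TAFE4_oil at resolution 0.5. The causes were not tested. Of 811 member values, TMM factors brought 40 past 1.5-fold and took 7 back, keeping doublets 19 and 29, no mitochondrial filter 23 and 18, and at least 1000 UMIs per nucleus 10 and 8 of 799. Depth limits Grin2c, Grin2d and Grin3a most, since their sums in many classes are under 100 UMIs.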

Other observations

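Outside the 16 classes, members were read in small groups of nuclei summed over all libraries. Gria2 stood at 3848 CPM in 218 nuclei like newly formed oligodendrocytes, above the 1077 to 1681 CPM of oligodendrocytes in single libraries, and Grin3a there at 27.6 CPM on 11 UMIs, against 101 to 159 CPM in oligodendrocyte precursors. Gria4 stood at 177 CPM in 270 Cajal-Retzius-like nuclei, on 69 UMIs. Grin2c stood at 29.7 CPM in 534 endothelial-like nuclei, on 51 UMIs, and at 28.3 CPM in 495 choroid plexus-like nuclei, above all excitatory classes and below astrocytes.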
